A study of Mus musculus with 19 samples.

Results

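Hepatokines are proteins that liver cells secrete and that act on other cells and tissues. The 8 hepatokine genes described here are Fgf21, Gdf15, Angptl4, Angptl6, Lect2, Fst, Inhbe and Inhba. They were taken by gene symbol from a table of 24537 genes, and all 8 had a row. All 8 also passed the filter on low counts, together with 12269 genes in total. Hepatocytes were isolated by perfusing the liver in 2 steps, and their poly(A) RNA was sequenced with 1 library for each mouse. Every animal was a male, wild-type mouse of the C57BL/6J strain. The young group was 10 mice labelled 5 months old and the old group was 9 mice labelled 24 months old. They were culled on 2 days, 23 days apart, with 5 young and 5 old mice on the first day and 5 young and 4 old mice on the second. The labels give 1 birth date for each age group, so mice of the second day were also 23 days older than those of the first, and the cull day and this age step cannot be told apart. No mouse had a treatment or an altered allele according to the labels, and mice are named by their library numbers. The series title places these libraries in a study of ageing, interferon signalling and liver cancer. The question addressed here is which hepatokine transcripts differed with age, and whether the cull day mattered.

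FGF21 and GDF15 are circulating hormones that rise when cells are starved or stressed. FGF21 signals through an FGF receptor paired with the co-receptor beta-Klotho, and GDF15 through GFRAL, a receptor found in the hindbrain. Both genes, and Inhbe, are known targets of the integrated stress response, in which the transcription factor ATF4 is translated when translation in general is reduced. Fgf21 and Angptl4 are also known targets of PPAR alpha, the nuclear receptor of fasting. ANGPTL4 inhibits lipoprotein lipase, the enzyme that frees fatty acids from circulating triglyceride, and ANGPTL6 is a related secreted protein. Inhba and Inhbe encode the beta subunits of activin A and activin E, ligands of the TGF-beta family, and Fst encodes follistatin, which binds and neutralises activins. LECT2 is a secreted protein made mostly by hepatocytes.

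Counts over genes totalled 17381439 to 20287628.5 per library. Levels are given as CPM, a gene's counts relative to the library's total after scaling by the trimmed mean of M-values. Alb, the gene of albumin and a defining hepatocyte transcript, was at 61130 to 157400 CPM, so every library held hepatocyte RNA in quantity. The test used below called 16.3% of all genes higher and 14.5% lower in old mice. By this test 2 of 6 hepatocyte markers rose and 2 fell. Alb (log2 fold change 0.47) and Apoa1 (0.41) rose, and Hnf4a (-0.30) and Cps1 (-0.64) fell. Markers of other liver cells were also present and mostly higher in old mice. Of these, 12 of 14 macrophage, 11 of 14 endothelial and 13 of 14 stellate cell markers rose by the same test. Their summed levels were 156 to 731 CPM in young and 93.0 to 3764 CPM in old mice for macrophages, 217 to 412 and 233 to 728 CPM for endothelial cells, and 53.7 to 142 and 148 to 528 CPM for stellate cells. None of these 3 lists had a gene at 0 in all libraries. Without old mouse 1187 the counts of these 3 lists were 2, 8 and 10 of 14, where 3014 genes in all were called, against 3785 with all mice. Young mice 1184, 1186 and 1188, all of the first cull day, stood apart by acute phase transcripts, which the liver makes during inflammation. Saa1, a serum amyloid A gene, was at 5109, 8275 and 3185 CPM in them, against 15.8 to 595 CPM in the other 16 mice. Calls below that did not hold without the 3 young mice, or without old mouse 1187, are given with their values in those fits. The labels give each library its own mouse number, and the p-values take mice as the replicates.

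Age was tested over all genes with edgeR's quasi-likelihood test, with cull day as a covariate, and a gene was called when its p, adjusted by the Benjamini-Hochberg method over all genes, was under 0.05. Of the 8 hepatokines, 2 rose with age, Gdf15 and Angptl6, and 0 fell. The share called among all genes was 30.9%, with 16.3% of genes higher and 14.5% lower in old mice, so the count among the hepatokines was close to the background. DESeq2 called 4 of the 8, Fgf21 and Inhba also rising, with 33.7% of all genes called. Scaled by library totals alone, 3270 genes were called, of which 2098 (64.2%) were higher in old mice, against 2005 (53.0%) here, and Inhba passed there too. The median log2 fold change was 0.44 over the 8 genes and -0.003 over all genes tested. In RNA from a whole preparation, a change in the number of cells of a type and a change in RNA per cell cannot be told apart.

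**Figure D1:**
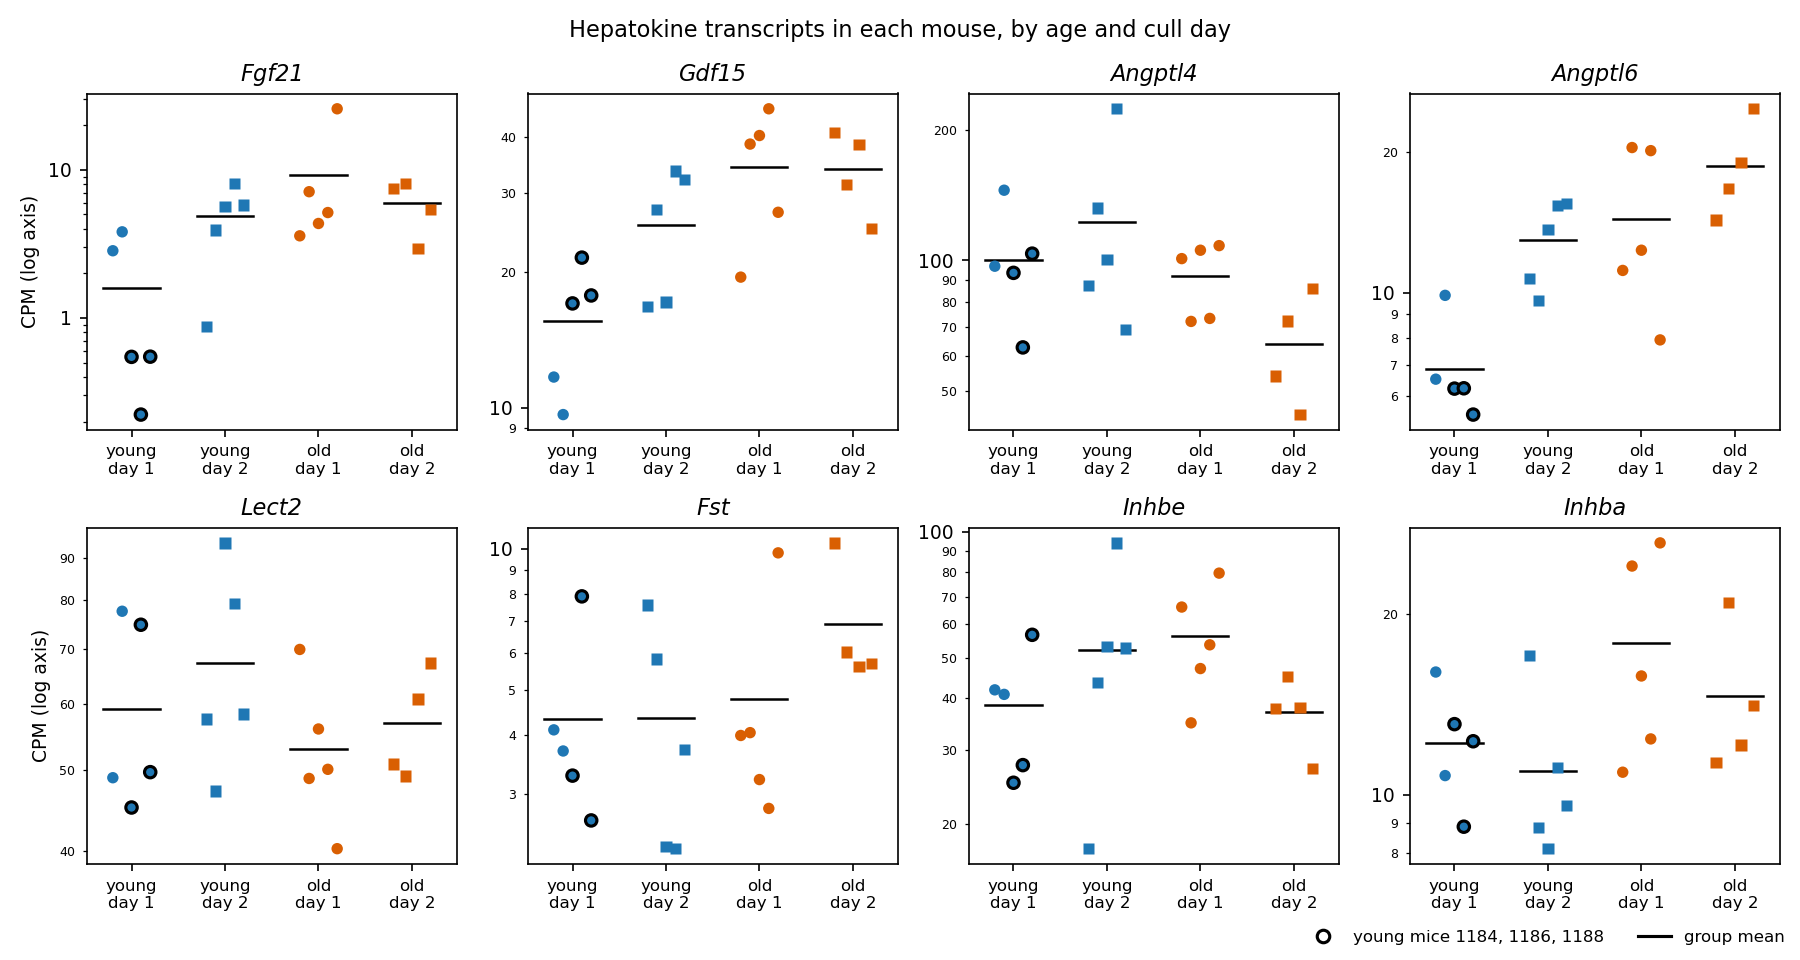
CPM of each hepatokine on a log axis, 1 point per mouse, for young and old mice on the first (day 1) and second (day 2) cull day. Lines are group means and ringed points are young mice 1184, 1186 and 1188, which hold the 3 lowest Fgf21 values, at 0.22 to 0.55 CPM.

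Gdf15 (chromosome 8, 70629393 to 70632095, minus strand, mm10) rose with age. In young mice it was lowest at 9.64, had a median of 17.5 and was highest at 33.6 CPM, and in old mice it was lowest at 19.5, had a median of 38.5 and was highest at 46.2 CPM. Every old mouse was above the young median, and 5 of the 9 old mice were above all young mice. The means were 20.5 ± 8.15 CPM (SD, n = 10) and 34.2 ± 8.82 CPM (SD, n = 9). The fitted ratio, which takes the cull day into account, was 1.74 with a 95% interval of 1.29 to 2.34. On the log2 scale the age difference was 0.80 (SE 0.20, edgeR adjusted p = 0.00766), and the exact two-sided permutation test within cull days gave p = 0.00296.

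The 2 lowest Gdf15 values were those of young mice 1180 and 1182. The young values of the first day were 11.7, 9.64, 17.1, 21.6 and 17.8 CPM in mice 1180, 1182, 1184, 1186 and 1188. On the second day the young values were 16.8, 27.6, 17.2, 33.6 and 32.1 CPM in mice 1235, 1237, 1239, 1243 and 1244. The old values averaged 34.4 ± 10.8 CPM (SD, n = 5) on the first day and 33.9 ± 7.20 CPM (SD, n = 4) on the second. So the old groups lay close together while the young groups were further apart. Within the first day the log2 fold change was 1.14 (SE 0.26, edgeR adjusted p = 0.0436, with 3.67% of all genes called), and within the second it was 0.42 (SE 0.22, edgeR adjusted p = 0.211, with 19.3% called). The difference between these was not past the threshold (interaction -0.73, SE 0.38, edgeR adjusted p = 0.796). Without young mice 1184, 1186 and 1188 the interaction was -1.27 (SE 0.43, unadjusted p = 0.00932 and adjusted p = 0.9996 in edgeR). Without young mice 1184, 1186 and 1188 the rise was 0.87 (SE 0.26, edgeR adjusted p = 0.0255). With a score of macrophage, endothelial and stellate markers as a further covariate (13.1% of all genes called) it was 0.74 (edgeR adjusted p = 0.0527), which no longer passed.

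Fgf21 (chromosome 7, 45613890 to 45615490, minus strand) varied more between mice than any other hepatokine, and its age difference did not pass. On the first cull day the young values were 2.84 CPM in mouse 1180 and 3.81 CPM in mouse 1182, but 0.55, 0.22 and 0.55 CPM in mice 1184, 1186 and 1188. On the second day they were 0.87, 3.91, 5.67, 8.07 and 5.78 CPM in mice 1235, 1237, 1239, 1243 and 1244. So 5 of 10 young mice, 1180, 1184, 1186, 1188 and 1235, were below every old mouse, and 4 of these had only 4.5 to 15 deposited counts. The other 5 young mice overlapped the old ones.

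Old mice had 3.58, 7.11, 4.34, 5.15 and 25.8 CPM of Fgf21 on the first day, in mice 1181, 1183, 1185, 1187 and 1189, and 7.46, 8.06, 2.95 and 5.38 CPM on the second, in mice 1236, 1238, 1240 and 1242. Mouse 1189 was the only old mouse above all young mice. The means were 3.23 ± 2.70 CPM (SD, n = 10 young mice) and 7.76 ± 6.99 CPM (SD, n = 9 old mice). Its log2 fold change was 1.44 (SE 0.57, edgeR adjusted p = 0.0599), a ratio of 2.72 with a 95% interval of 1.19 to 6.20, and the exact permutation test gave p = 0.0178 before any adjustment. Over the alternatives with all mice the adjusted p ranged from 0.0296 to 0.0950. It was lowest with the score of other cells as a covariate, where Fgf21 passed with a log2 fold change of 2.34 (edgeR), and under DESeq2 it was 0.0320. The intervals given for ratios are not adjusted for the number of genes.

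The 3 young mice with high Saa1 were the 3 with the least Fgf21, while young mouse 1235 was also low at 27.3 CPM of Saa1. Without the 3 mice the log2 fold change of Fgf21 was 0.72 (SE 0.50, edgeR adjusted p = 0.295). It was 2.52 (SE 0.80, edgeR adjusted p = 0.0914) on the first day alone and 0.30 (SE 0.43, edgeR adjusted p = 0.675) on the second alone. The interaction of age with cull day was -2.23 (SE 0.98, unadjusted p = 0.0359 and adjusted p = 0.737 in edgeR), and -1.17 (unadjusted p = 0.246 in edgeR) without the 3 mice. Without old mouse 1189 the log2 fold change was 0.95, and it passed without old mouse 1240 (1.66, edgeR adjusted p = 0.0411) or young mouse 1243 (1.61, edgeR adjusted p = 0.0401).

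**Figure D2:**
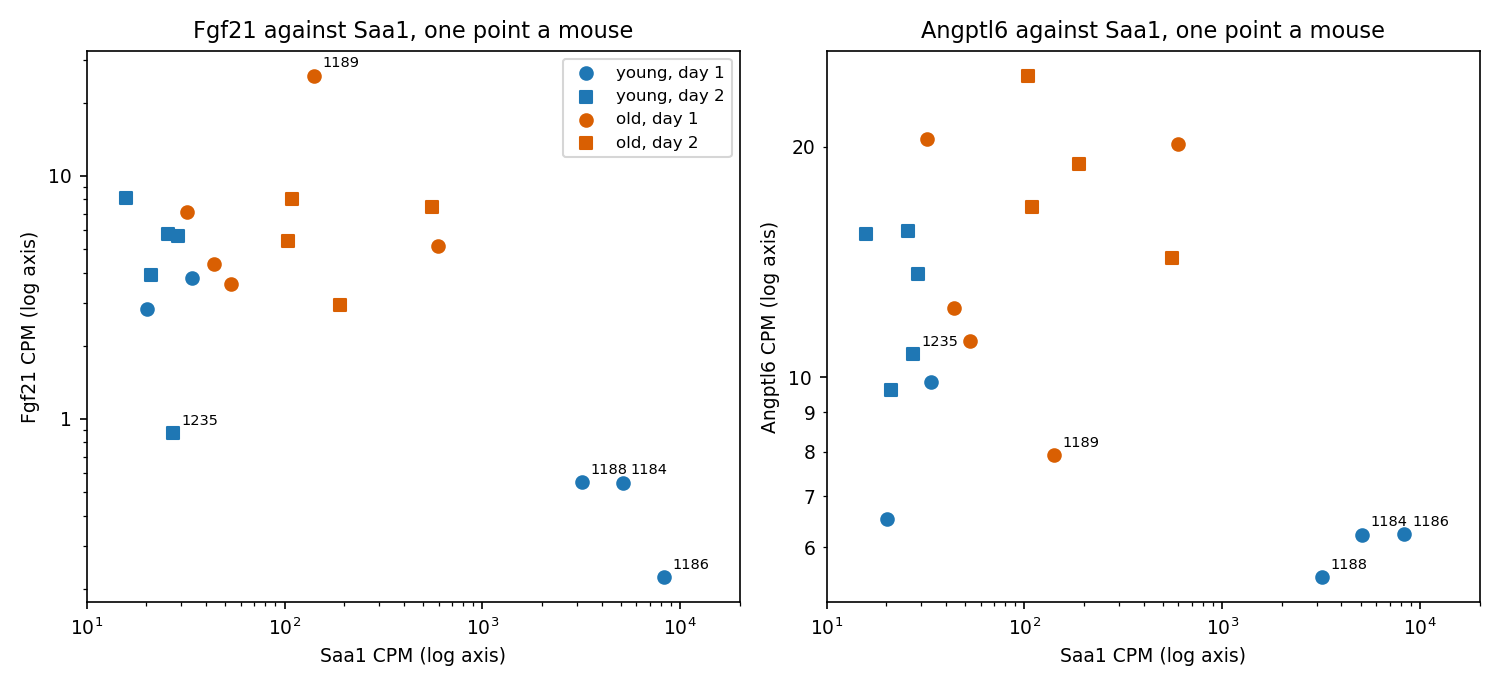
Fgf21 (left) and Angptl6 (right) in CPM against Saa1 in CPM, both on log axes, with 1 point per mouse, coloured by age and shaped by cull day. Young mice 1184, 1186 and 1188 lie far to the right, at 3185 to 8275 CPM of Saa1, with the lowest Fgf21 values, while young mouse 1235 has 0.87 CPM of Fgf21 at 27.3 CPM of Saa1.

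RefSeq promoters (GRCm38.p6, 250 bases before to 50 after the start site) were at hand for 6 of the 8 genes, 7 sequences in all because Gdf15 has 2 start sites. The letters TTGCATCA, the composite element bound by ATF4 with a C/EBP partner, were searched on both strands. They were found in the promoters of Fgf21 and Inhbe and in 0.895% of all 32851 promoters. The first base of the element stood at -139 from the Fgf21 start and at -181 from the Inhbe start, on the strand of the gene, with the start site counted as 0. These 2 sequences are shown because they hold the element, which the capitals mark, and the 2 Gdf15 promoters do not hold it. Fgf21 is chr7:45615441-45615740 and Inhbe is chr10:127351799-127352098, both on the minus strand and written 5′ to 3′.
Fgf21: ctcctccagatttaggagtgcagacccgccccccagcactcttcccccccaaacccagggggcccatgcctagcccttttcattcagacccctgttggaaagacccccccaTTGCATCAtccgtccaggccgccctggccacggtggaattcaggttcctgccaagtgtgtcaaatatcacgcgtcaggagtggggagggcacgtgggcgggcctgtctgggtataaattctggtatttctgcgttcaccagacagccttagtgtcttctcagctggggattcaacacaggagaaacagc
Inhbe: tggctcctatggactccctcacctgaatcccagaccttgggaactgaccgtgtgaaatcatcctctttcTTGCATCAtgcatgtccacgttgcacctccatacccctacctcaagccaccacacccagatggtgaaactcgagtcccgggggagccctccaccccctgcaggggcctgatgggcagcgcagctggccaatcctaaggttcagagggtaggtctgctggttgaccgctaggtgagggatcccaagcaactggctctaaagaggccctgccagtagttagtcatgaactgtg
A match is a description of these letters and not evidence of binding. The direct repeat read by PPAR alpha, written AGGTCA, then any base, then AGGTCA, was in none of the 7 promoters and in 0.0396% of all promoters. The letters ATCAAAG, read by the TCF/LEF partners of beta-catenin, were in that of Lect2 and in 3.73% of all promoters.

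Angptl6 (chromosome 9, 20873809 to 20879710, minus strand) rose with age and, with all mice, was higher on the second cull day. The day difference did not pass without young mice 1184, 1186 and 1188, nor in 8 of the 19 fits that left out 1 mouse. The young values were 6.53, 9.87, 6.23, 6.24 and 5.48 CPM on the first day, in mice 1180, 1182, 1184, 1186 and 1188, and 10.7, 9.62, 13.7, 15.4 and 15.5 CPM on the second, in mice 1235, 1237, 1239, 1243 and 1244. The old values were 11.2, 20.5, 12.3, 20.2 and 7.92 CPM on the first day, in mice 1181, 1183, 1185, 1187 and 1189, and 14.3, 16.7, 18.99 and 24.8 CPM on the second, in mice 1236, 1238, 1240 and 1242. On the first day 4 of the 5 old mice were above all young mice, old mouse 1189 being the exception. On the second day 3 of the 4 were, old mouse 1236 lying within the young range.

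The means of Angptl6 were 9.93 ± 3.86 CPM (SD, n = 10 young mice) and 16.3 ± 5.33 CPM (SD, n = 9 old mice). The fitted ratio was 1.75 with a 95% interval of 1.34 to 2.28. The fitted age difference was, in log2 units, 0.81 (SE 0.18, edgeR adjusted p = 0.00364), and the exact permutation test gave p = 0.000882. Without young mice 1184, 1186 and 1188 the rise was 0.63 (edgeR adjusted p = 0.0332, with 27.2% of all genes called), and with the score of other cells as a covariate it was 0.84 (edgeR adjusted p = 0.0211). It was 1.06 (edgeR adjusted p = 0.0536) on the first day alone and 0.53 (edgeR adjusted p = 0.0540) on the second alone, so neither day passed by itself.

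The exons of Angptl6 share 265 bases with those of A230050P20Rik on the opposite strand. Whether the counting used strand is not stated, so reads in that stretch cannot be told apart. A230050P20Rik averaged 34.6 ± 12.1 CPM (SD, n = 10 young mice) and 56.8 ± 15.4 CPM (SD, n = 9 old mice), which is a log2 fold change equal to 0.79 (SE 0.15, edgeR adjusted p = 0.00143). Spearman's rho between the genes over the 19 libraries was 0.935, given as a description because shared reads can raise it.

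Angptl4 (chromosome 17, 33774900 to 33781575, minus strand) had the opposite direction and did not pass. It was lowest at 63.0, had a median of 98.7 and was highest at 224 CPM in young mice, the highest being mouse 1243. In old mice it was lowest at 44.1, had a median of 73.4 and was highest at 108 CPM. The ages overlapped, with 3 of 10 young mice above all old mice and 2 of 9 old mice below all young mice. Angptl4 had a fitted log2 fold change equal to -0.50 (SE 0.22, edgeR adjusted p = 0.0894; exact permutation p = 0.0584), a ratio of 0.706 with a 95% interval of 0.513 to 0.972. Without young mice 1184, 1186 and 1188 Angptl4 fell with age by 0.73 on the log2 scale (SE 0.24, edgeR adjusted p = 0.0327), and it also passed without young mouse 1186 alone (-0.59, edgeR adjusted p = 0.0431). With the score of other cells as a covariate it was -0.23 (edgeR adjusted p = 0.627). Without young mouse 1243 it was -0.34 (edgeR adjusted p = 0.147). It was -0.12 (SE 0.21) on the first day and -0.93 (SE 0.31, edgeR adjusted p = 0.0525) on the second, and the interaction did not pass (-0.81, SE 0.40, edgeR adjusted p = 0.786).

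**Figure D3:**
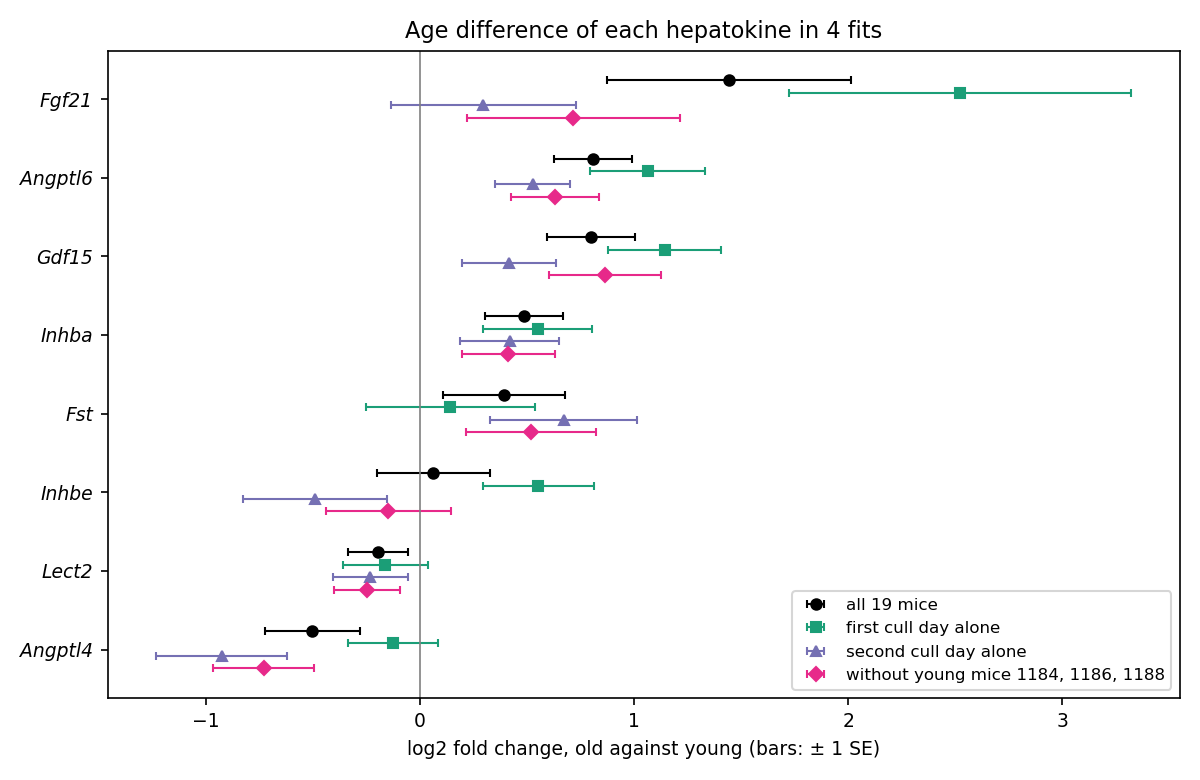
Log2 fold change of each hepatokine, old against young, with bars of 1 SE, in all 19 mice, in each cull day alone, and without young mice 1184, 1186 and 1188. Fgf21, Angptl6, Gdf15, Inhba and Fst lie above 0 in all 4 fits and Lect2 and Angptl4 below 0, while Inhbe lies at 0.55 on the first day and -0.49 on the second.

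Among the activin genes, Inhba (chromosome 13, 16011851 to 16031609, plus strand) lay at the edge of the threshold. It was lowest at 8.15, had a median of 10.9 and was highest at 17.03 CPM in young mice, and was lowest at 10.9, had a median of 14.1 and was highest at 26.2 CPM in old mice. Old mice 1183, 1189 and 1238 were above all young mice, and 5 of 10 young mice were below all old mice. Its fitted log2 fold change with age was 0.49 (SE 0.18, edgeR adjusted p = 0.0501), a ratio of 1.4 with a 95% interval of 1.07 to 1.83, and the exact permutation test gave p = 0.0329. It was 0.55 (SE 0.26) on the first day and 0.42 (SE 0.23) on the second. Inhba passed in 6 of the 19 fits that left out 1 mouse, those without young mouse 1180 or 1235 or old mouse 1181, 1187, 1236 or 1240, and without young mice 1184, 1186 and 1188 it was 0.41 (edgeR adjusted p = 0.165). With the score of other cells as a covariate it passed (0.68, edgeR adjusted p = 0.0396).

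Inhbe (chromosome 10, 127349402 to 127351848, minus strand) did not differ with age beyond the spread between mice. It was lowest at 17.4, had a median of 42.7 and was highest at 94.1 CPM in young mice, and was lowest at 27.1, had a median of 45.0 and was highest at 79.6 CPM in old mice. The old range lay inside the young one. On the log2 scale the age difference was 0.06 (SE 0.26, edgeR adjusted p = 0.875), a ratio of 1.04 with a 95% interval of 0.713 to 1.53. Its sign differed between days, at 0.55 (SE 0.26) on the first and -0.49 (SE 0.34) on the second, but the interaction did not pass after adjustment (-1.05, SE 0.47, unadjusted p = 0.0397 and adjusted p = 0.747 in edgeR).

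Fst (chromosome 13, 114452262 to 114458951, minus strand) was low in every library, at 41.5 to 200.5 deposited counts. It was lowest at 2.29, had a median of 3.71 and was highest at 7.91 CPM in young mice, and was lowest at 2.79, had a median of 5.61 and was highest at 10.3 CPM in old mice. Old mice 1189 and 1236 were above all young mice, and the other old mice lay within the young range. Its log2 fold change was 0.39 (SE 0.28, edgeR adjusted p = 0.307), a ratio of 1.31 with a 95% interval of 0.870 to 1.98, and it was 0.20 without old mouse 1189. Its exons share 115 bases with Gm47040, an antisense gene that has no row of its own in the table.

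Lect2 (chromosome 13, 56542460 to 56548538, minus strand) was the steadiest of the 8 genes. It was lowest at 45.1, had a median of 58.0 and was highest at 93.7 CPM in young mice, and was lowest at 40.3, had a median of 50.9 and was highest at 69.8 CPM in old mice. The groups overlapped, although 4 of 10 young mice were above all old mice. The fitted age difference was, in log2 units, -0.20 (SE 0.14, edgeR adjusted p = 0.300), a ratio of 0.873 with a 95% interval of 0.713 to 1.07.

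Between genes, levels were compared as CPM per kilobase of the exon length in the table. Over all 19 libraries Lect2 had the highest mean at 68.1 ± 16.3 CPM per kilobase (SD, n = 19), followed by Angptl4 at 50.9, Inhbe at 21.0, Gdf15 at 17.5, Angptl6 at 8.32, Fgf21 at 5.71, Inhba at 2.18 and Fst at 1.75. Lect2 was above 92.2% of all genes tested by this measure and Fst above 28.4%. Angptl4 was above Inhbe in all 19 libraries, and Gdf15 above Angptl6 in 18 of 19. Inhbe and Gdf15 changed places between mice, with Inhbe higher in 11 of 19 libraries. In young mice their means were 20.5 and 13.3 CPM per kilobase, and in old mice 21.6 and 22.2. The gaps between the means of Lect2 and Angptl4, Inhbe and Gdf15, Angptl6 and Fgf21, Fgf21 and Inhba, and Inhba and Fst were each smaller than the larger of the SDs. These SDs are between mice and do not measure the order within a library. Angptl6 was above Fgf21 in 18 of 19 libraries, Lect2 above Angptl4 in 16, and Fgf21 above Inhba and Inhba above Fst in 15 each. The counts were made over exons of the table's lengths, so only these lengths match them. The GENCODE transcript matched through RefSeq has 3308 exon bases for Angptl4, 5319 for Inhbe and 1529 for Inhba, against 1894, 2207 and 6371. Dividing by those would give 29.1, 8.73 and 9.07 CPM per kilobase, which are not levels over the bases counted.

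**Figure D4:**
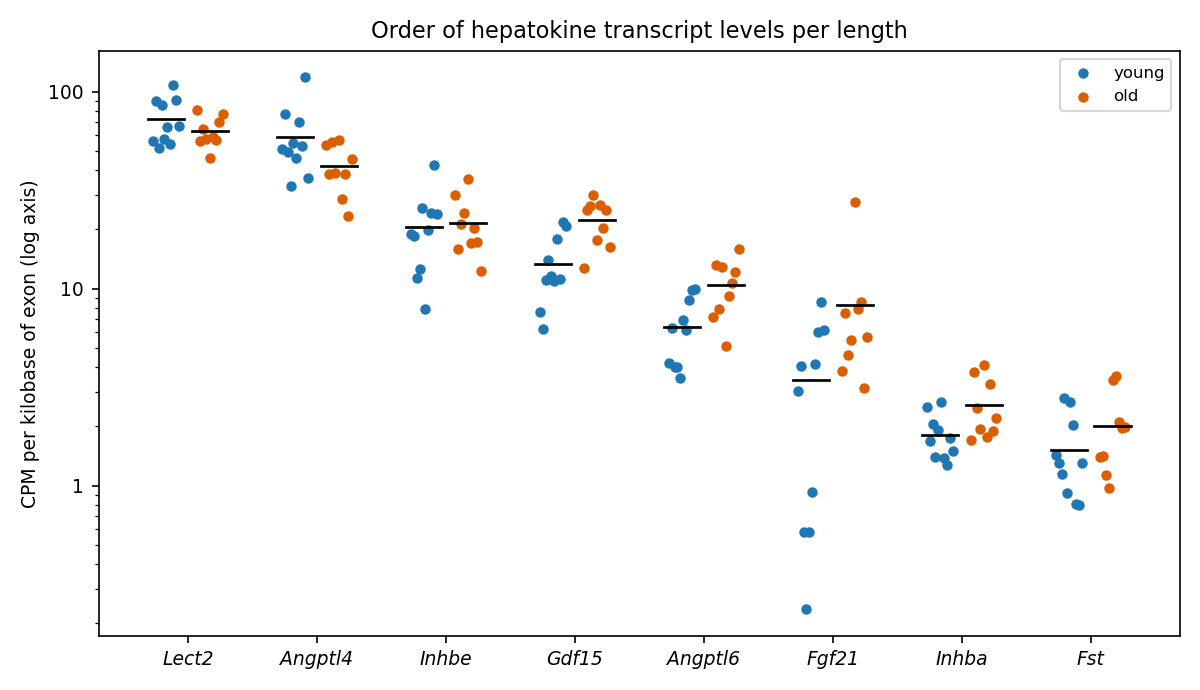
CPM per kilobase of exon on a log axis for each hepatokine, 1 point per mouse, young and old side by side with lines at the group means. The genes run from Lect2, with a mean of 68.1 over all mice, to Fst, with 1.75, and Fgf21 has the widest spread.

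The spread among mice of the same age and cull day was large for these genes. Its SD on the log2 CPM scale was 1.2 for Fgf21, 0.64 for Fst, 0.58 for Inhbe, 0.47 for Angptl4, 0.46 for Gdf15, 0.43 for Inhba, 0.41 for Angptl6 and 0.33 for Lect2. The median over all genes tested was 0.24, and Fgf21 was above 98.8% of them. From the lowest to the highest of the 19 mice, Fgf21 ranged 116-fold and Lect2 2.33-fold.

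Whether the hepatokines moved together between mice was examined for all 28 pairs on the log2 CPM scale. None passed by Pearson's r or Spearman's rho after adjustment over the 28 pairs. Gdf15 and Angptl6 had r = 0.628 (permutation p = 0.00424, adjusted p = 0.0760) and rho = 0.637 (permutation p = 0.00387, adjusted p = 0.0981), and r = 0.629 without the 2 mice farthest from the median of Gdf15. Within young mice r was 0.464, within old mice 0.330, on the first day 0.674 and on the second 0.337. Fgf21 and Angptl6 had r = 0.577 (permutation p = 0.00945, adjusted p = 0.0760) and rho = 0.581 (permutation p = 0.0105, adjusted p = 0.0981). Without mice 1184 and 1186, r was 0.383. Without mice 1184, 1186 and 1188, r was 0.101 and rho 0.309. On the first day r was 0.576 and rho 0.758, and on the second, which held none of those 3 mice, r was 0.399 and rho 0.2. Within young mice r was 0.804 and rho 0.855, and within old mice r was -0.509 and rho -0.133.

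Lect2 and Inhba ran in opposite directions, with r = -0.609 (permutation p = 0.00587, adjusted p = 0.0760) and rho = -0.598 (permutation p = 0.00804, adjusted p = 0.0981), and r = -0.527 without the 2 mice farthest from the median of Lect2. Within young mice r was -0.505, within old mice -0.707, on the first day -0.747 and on the second -0.378. Fgf21 and Inhbe, the pair with the TTGCATCA element, had r = 0.572 (permutation p = 0.0108, adjusted p = 0.0760) and rho = 0.433 (permutation p = 0.0649, adjusted p = 0.234), and r = 0.440 without mice 1184 and 1186. Without mice 1184, 1186 and 1188, r was 0.667 and rho 0.397. Within young mice r was 0.670, within old mice 0.410, on the first day 0.643 and on the second 0.748.

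For each hepatokine the 3 genes with the most similar pattern over the 19 libraries were found by Spearman's rho among the 11066 others with a named symbol and a mean of at least 1 CPM. As they were picked as the highest of many, they are given as a description with no test. They were Hes1 (0.914), Ier2 (0.888) and Fam175a (0.868) for Gdf15. Hes1 is a target of Notch signalling and Ier2 an immediate early gene. For Angptl6 they were Scarf1 (0.979), Pisd-ps1 (0.977) and Fam193b (0.935). For Fgf21 they were Tti2 (0.923), Tmem82 (0.911) and Ppp2r2d (0.860).

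For Angptl4 the most similar were Tsc22d3 (0.784), a glucocorticoid-induced gene, Lpin2 (0.779), a phosphatidate phosphatase, and Fitm2 (0.758), a lipid droplet protein. For Inhbe they were Epha2 (0.823), F3 (0.800), which encodes tissue factor, and Cpt1a (0.760), the rate-limiting step of mitochondrial fatty acid uptake. For Lect2 they were Pex11g (0.791), Gamt (0.789) and Hacd2 (0.756). Values were lower for Fst, with Zfp30 (0.760), Sept5 (0.726) and Abhd17c (0.719), and for Inhba, with Pias1 (0.721), Med26 (0.686) and Tnik (0.684).

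In the lists of related genes below, counts from the main fit are to be read against the 30.9% of all genes called by age, 16.3% higher and 14.5% lower. Counts without the 3 acute phase young mice are to be read against 27.2%, and counts with the score of other cells as a covariate against 13.1%. Of the FGF21 receptors, 2 of 5 rose with age. Fgfr4, the main FGF receptor of hepatocytes, went from a young mean of 39.3 ± 6.54 CPM (SD, n = 10) to an old mean of 49.1 ± 4.87 CPM (SD, n = 9), which is a log2 fold change of 0.32 (edgeR adjusted p = 0.0138). Fgfr2 rose by 0.35 (edgeR adjusted p = 0.0375), but did not pass without the 3 acute phase young mice (0.27, edgeR adjusted p = 0.139), without old mouse 1187 (0.30, 0.0816) or with the score of other cells as a covariate (0.38, 0.119). Klb, the gene of beta-Klotho, was at 34.8 ± 12.8 CPM (SD, n = 10 young mice) and 36.4 ± 13.2 CPM (SD, n = 9 old mice), which is a log2 fold change of 0.06 (edgeR adjusted p = 0.865). Fgfr1, the usual partner of beta-Klotho for FGF21, was at 0.01 (edgeR adjusted p = 0.977) and Fgfr3 at 0.07 (edgeR adjusted p = 0.625). Gfral, the GDF15 receptor, had 0 counts in every library, which in the smallest library allows up to 0.173 CPM, and its partner Ret had at most 1.5 counts.

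The list of receptors of GDF15 and LECT2 and of processing enzymes, which includes Gfral and Ret, had 4 of 7 genes tested, of which 1 rose and 2 fell. Met, a hepatocyte growth factor receptor that LECT2 can bind, fell by 0.37 on the log2 scale (edgeR adjusted p = 0.0299), and Furin, a protease that cleaves prohormones, fell too (-0.32, edgeR adjusted p = 0.00950). Tie1, an endothelial receptor of LECT2, rose by 0.51 (edgeR adjusted p = 0.0305), beside the rise of 11 of 14 endothelial markers. Pcsk5, another processing protease, was at -0.02 (edgeR adjusted p = 0.901). Furin alone passed without the 3 acute phase young mice, where Met was at -0.35 (edgeR adjusted p = 0.0875) and Tie1 at 0.50 (0.0678). Furin alone also passed without old mouse 1187, where Met was at -0.31 (edgeR adjusted p = 0.0501) and Tie1 at 0.41 (0.0671). With the score of other cells as a covariate 0 of the 4 passed: Met was at -0.30 (edgeR adjusted p = 0.209), Furin at -0.26 (0.123) and Tie1 at 0.07 (0.810).

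In the activin and TGF-beta list, 16 of 19 genes were tested, of which 5 rose and 1 fell, with a median log2 fold change of 0.03. Inhbb, the beta subunit of activin B, went from a young mean of 1.15 ± 0.50 CPM (SD, n = 10) to an old mean of 3.94 ± 3.18 CPM (SD, n = 9), which is a log2 fold change of 1.72 (edgeR adjusted p = 0.00178). Tgfbr3, a co-receptor, rose by 0.73 (edgeR adjusted p = 0.0107), Smad6, an inhibitory SMAD, by 0.72 (edgeR adjusted p = 0.0142), Bambi, a decoy receptor, by 0.48 (edgeR adjusted p = 0.0365) and Tgfbr2 by 0.35 (edgeR adjusted p = 0.0443). Smad4, the SMAD shared by all branches, fell by 0.29 on the log2 scale (edgeR adjusted p = 0.00509). With the score of other cells as a covariate 0 of the 16 passed in either direction, where 13.1% of all genes did, and Inhbb was at 0.74 (edgeR adjusted p = 0.141), Tgfbr3 at 0.16 (0.513), Smad6 at 0.21 (0.525) and Tgfbr2 at -0.02 (0.934). The values of Bambi (0.49, edgeR adjusted p = 0.112) and Smad4 (-0.26, 0.0628) stayed close to those without it.

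Inhbc, the liver-enriched activin C subunit, did not pass (-0.13, edgeR adjusted p = 0.438), nor did the activin receptors Acvr1 (0.10, edgeR adjusted p = 0.390), Acvr1b (-0.23, 0.306), Acvr2a (-0.20, 0.0580) and Acvr2b (0.37, 0.153), or Tgfbr1 (-0.19, 0.0856). Without the 3 acute phase young mice 4 of the 16 rose and 3 fell, where 27.2% of all genes were called. Smad6 (0.64, edgeR adjusted p = 0.0686) and Bambi (0.43, 0.0982) did not pass there, and Tgfbr2 did not pass without old mouse 1187 (0.24, 0.107). Among the genes gained without the 3 young mice, Acvr2b then passed at 0.76 (edgeR adjusted p = 0.00151), and Inhbc and Acvr2a fell (-0.32 and -0.26, edgeR adjusted p = 0.0347 and 0.0411). Inha, Acvr1c and Fstl3, a relative of follistatin, had at most 2, 1 and 4 counts in any library and were not tested.

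Of the other angiopoietin-like genes and lipases, 8 of 10 were tested, of which 3 rose and 0 fell. Angptl2 rose by 1.64 (edgeR adjusted p = 0.000234) and still passed with the score of other cells as a covariate (0.92, edgeR adjusted p = 0.00622). Lpl, the target of ANGPTL4, rose by 1.79 (edgeR adjusted p = 0.00870), from a young mean of 7.72 ± 3.00 CPM (SD, n = 10) to an old mean of 28.2 ± 40.7 CPM (SD, n = 9), and was at 0.97 (edgeR adjusted p = 0.0244) without old mouse 1187 and at -0.10 (0.862) with that covariate. Gpihbp1, which anchors lipoprotein lipase to capillaries, rose by 1.09 (edgeR adjusted p = 0.00215), and was at 0.48 (edgeR adjusted p = 0.121) with it. Angptl8, a secreted regulator of lipoprotein lipase, did not pass (0.79, edgeR adjusted p = 0.110).

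Among 15 other secreted liver factors, 14 were tested, of which 2 rose and 1 fell. Tsku, the hepatokine tsukushi, fell from a young mean of 58.4 ± 22.4 CPM (SD, n = 10) to an old mean of 24.9 ± 10.3 CPM (SD, n = 9), which is a log2 fold change of -1.25 (edgeR adjusted p = 0.00180), and still passed with the score of other cells as a covariate (-0.97, edgeR adjusted p = 0.0417). Gdf2 and Bmp6, both ligands of the bone morphogenetic protein family made mainly by non-parenchymal liver cells, rose by 1.31 (edgeR adjusted p = 0.00216) and 0.57 (edgeR adjusted p = 0.0236). With the covariate Gdf2 passed at 0.52 (edgeR adjusted p = 0.0440) and Bmp6 was at 0.36 (edgeR adjusted p = 0.289). Without the 3 acute phase young mice Bmp6 did not pass either (0.37, edgeR adjusted p = 0.145). Fgl1, a hepatocyte factor of the fibrinogen family, did not pass (1.04, edgeR adjusted p = 0.159). Its log2 fold change was 0.04 (edgeR adjusted p = 0.966) with the covariate. It was 2.39 without those 3 mice, given with no test because they were singled out by acute phase transcripts and Fgl1 is itself known to be induced in the acute phase.

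Of the integrated stress response genes, 15 of 19 were tested, and 2 rose and 2 fell, with a median log2 fold change of 0.09. Ddit3, which encodes CHOP, rose by 0.50 (edgeR adjusted p = 0.0203) and Atf3 by 1.22 (edgeR adjusted p = 0.0374). Shmt2, a mitochondrial enzyme of one-carbon metabolism, fell by 0.29 on the log2 scale (edgeR adjusted p = 0.00193) and Asns, asparagine synthetase, fell too (-1.18, edgeR adjusted p = 0.0438). Asns was at 33.0, 20.6 and 23.8 CPM in young mice 1184, 1186 and 1188, where Fgf21 was lowest, and at 0.51 to 10.5 CPM in all other mice. Without those 3 mice, where 27.2% of all genes were called, 0 rose and 1 fell. Shmt2 passed (-0.34, edgeR adjusted p = 0.00242), and Asns (-0.44, 0.398), Ddit3 (0.48, 0.0644) and Atf3 (0.99, 0.163) did not. Without old mouse 1187, Asns (-1.08, edgeR adjusted p = 0.0774) and Atf3 (1.04, 0.0685) did not pass. With the score of other cells as a covariate, where 13.1% of all genes were called, 3 of the 15 rose and 2 fell. Those that rose were Ddit3 (0.60, edgeR adjusted p = 0.0416), Atf4 (0.36, 0.0335) and Ppp1r15a (0.48, 0.0396). Those that fell were Asns (-1.67, edgeR adjusted p = 0.0314) and Cebpb (-0.80, 0.0302). Shmt2 (-0.17, edgeR adjusted p = 0.0879) and Atf3 (1.21, 0.133) did not pass there, and without the covariate Atf4 was at 0.22 (0.0882).

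Of 19 PPAR alpha and fasting genes, all tested, 1 rose and 5 fell, near the 30.9% of all genes called, with a median log2 fold change of -0.27. Tat, a tyrosine-degrading enzyme induced by glucocorticoids, fell by 1.10 on the log2 scale (edgeR adjusted p = 0.000324). Creb3l3, which encodes a partner of PPAR alpha at the Fgf21 gene, fell as well (-0.26, edgeR adjusted p = 0.0188), as did Pck1, a key enzyme of gluconeogenesis (-0.50, edgeR adjusted p = 0.0243). Pdk4, which restrains glucose oxidation, rose by 1.17 (edgeR adjusted p = 0.0112), and Ppara itself fell (-0.47, edgeR adjusted p = 0.0348). Without the 3 acute phase young mice, where 27.2% of all genes were called, 0 rose and 11 fell, Pdk4 (0.74, edgeR adjusted p = 0.0639) and Pck1 (-0.42, 0.0983) not passing. Without old mouse 1187, Ppara did not pass (-0.42, edgeR adjusted p = 0.0615). With the score of other cells as a covariate, where 13.1% of all genes were called, 2 rose and 2 fell. Ppara (-0.14, edgeR adjusted p = 0.643) and Creb3l3 (-0.16, 0.269) did not pass there. In the acute phase list 0 of 16 genes passed by age in edgeR with all mice or without old mouse 1187 (0 at an unadjusted p under 0.05 with all mice). No count is drawn for this list without young mice 1184, 1186 and 1188, because they were singled out by its transcripts and leaving them out would set its direction. Its smallest p-values with all mice were those of Hamp, the gene of hepcidin (0.39, edgeR adjusted p = 0.170), Serpina3n (-0.57, 0.352), Hp, which encodes haptoglobin (0.49, 0.389), and Fgb, a fibrinogen chain (0.28, 0.418).

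**Figure D5:**
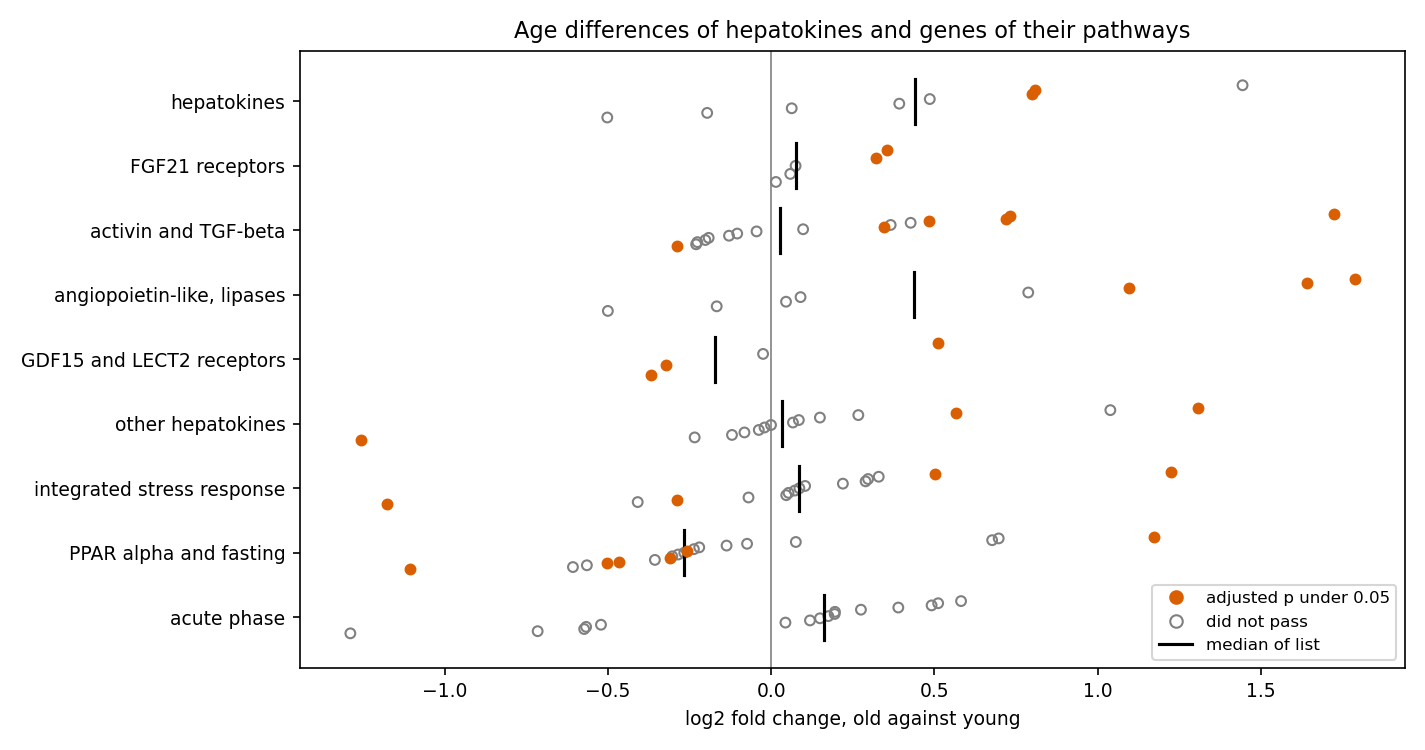
Log2 fold change, old against young, for the tested genes of the hepatokines and of 8 lists of related genes, with filled points for genes past the adjusted threshold, open points for the rest and a line at each list's median. The hepatokines' median is 0.44, and the PPAR alpha and fasting list lies lowest at -0.27.

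The cull days were compared in the same fit. Of the 8 hepatokines, 1 differed, where 12.3% of all genes were called, 5.72% higher and 6.55% lower on the second day. Angptl6 was higher on the second day by 0.65 on the log2 scale (SE 0.18, edgeR adjusted p = 0.0283). The day difference of the others lay between -0.22 for Inhba and 0.50 for Fgf21, and none passed. Angptl6 passed in young mice alone (0.92, edgeR adjusted p = 0.0499) and not in old mice alone (0.37, edgeR adjusted p = 0.677), but its interaction was not past the threshold (-0.55, SE 0.35, edgeR adjusted p = 0.852). Without young mice 1184, 1186 and 1188 the day difference of Angptl6 was 0.48 (edgeR adjusted p = 0.203), and the number of genes called between days went from 1506 to 0 (DESeq2 with all mice called 2061). The call was also lost in 8 of the 19 fits that left out a single mouse, those without young mouse 1180, 1184, 1186, 1188, 1239, 1243 or 1244 or old mouse 1242, at edgeR adjusted p = 0.0522 to 0.0640. Over all 19 of these fits the day difference of Angptl6 ranged from 0.60 to 0.74.

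The age difference itself was compared between cull days for every gene. None of the 12269 genes passed in edgeR, with 799 at an unadjusted p under 0.05, so the share called was 0.0%. Among the hepatokines, Fgf21 and Inhbe had an unadjusted p under 0.05, and both had a negative interaction, as did Gdf15, Angptl4, Angptl6, Lect2 and Inhba. Fst alone was positive (0.53, SE 0.57).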

How the data were processed

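The authors deposited a single table that holds the estimated counts of each gene in 19 libraries. Per the file headers it came from HOMER's analyzeRepeats.pl on mm10, with raw counts over exons condensed to genes. STAR and HOMER are named in the submitters' processing notes. Per the labels' protocols, extraction used Trizol and chloroform and the libraries were stranded and paired-end. Versions, multi-mapping and the strand setting are not given in the sources used here. Values are multiples of 0.5, and 29.2% were not whole, so they were rounded before count tests that had been planned for plain counts. All sample columns were mapped by name.

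Tests used edgeR 4.0.16 in R 4.3.3 (filterByExpr by age, minimum count 10, TMM, quasi-likelihood, cull day as covariate) and were tested on simulated data. Alternatives used DESeq2 1.42.0 and limma 3.58.1. Log2 CPM used a prior count of 2. Exact permutation tests relabelled mice within cull days in all 31752 ways, and correlations used 100000 permutations. Each SE was derived from the F statistic, as the size of the log2 fold change over sqrt(F). The score of other cells averaged the log2 CPM of 42 markers (macrophage, endothelial and stellate).

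The text names all members, fixed receptors and paralogs, and up to 4 genes with the smallest p per list. A few items that this rule covers are not reported here. Members and lists were chosen with earlier results of these data known. Coordinates are the table's, counted from 1. Figures used Python 3.11.15 and matplotlib 3.10.9.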

Additional observations from a re-analysis of the deposited data

Results flagged for a closer look

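In 3 of 16 groups (8 genes by 2 ages) 1 mouse stood apart from the rest of its age by Dixon's criterion on the CPM scale. The criterion flags about 1 in 20 groups by chance if values are normally distributed. That was not tested for CPM, so no excess is read from this count. Fgf21 was at 25.8 CPM in old mouse 1189, against 8.06 CPM in the next old mouse. Angptl4 was at 223.6 CPM and Inhbe at 94.1 CPM in young mouse 1243, against 145 and 56.7 CPM in the next young mice.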

How the results depend on the processing

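The 2 hepatokines past the age threshold became 4 with DESeq2, 1 on the first cull day alone and 0 on the second alone, and 2 to 4 when 1 mouse was left out. Genes past the threshold by age became 450 on the first day, 2388 on the second and 1612 with the other-cell score, and 3014 to 3949 when 1 mouse was left out. By cull day, genes past the threshold became 0 without young mice 1184, 1186 and 1188, 183 in young and 0 in old mice alone, and 609 to 2335 when 1 mouse was left out. The 1 hepatokine past it became 0 without those 3 mice and in old mice alone, and was 0 to 1 when 1 mouse was left out. Direction changed for Inhbe by age on the second day (-0.49) and without the 3 mice (-0.15). By cull day it changed for Fgf21 without the 3 mice (-0.21) and in old mice (-0.62), for Gdf15 in old mice (-0.0174), and in young mice for Angptl4 (0.29) and Inhbe (0.45). Without the 3 mice the interaction of Lect2 was 0.0181 and that of Inhba 0.0037. With 1 mouse left out, Inhbe ranged from -0.0461 to 0.229 by age and from -0.239 to 0.0563 by cull day, and Angptl4 from -0.281 to 0.00856 by cull day. Inhba, at an adjusted p of 0.0501, passed with DESeq2 (0.0376), limma-voom (0.0447), library totals alone (0.0404), column-header totals (0.0468), unrounded counts (0.0498), at least 1 CPM in 9 libraries (0.0465) and no cull day term (0.0498). The causes were not tested. Header totals, unrounded counts, list counts under other fits and the interaction without the 3 mice were added after seeing the data. No paired analysis was possible because library numbers are not shared between ages. Counts were as few as 41.5 for Fst and 4.5 for Fgf21 in a library.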

Other observations

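Several genes of the fixed lists were too low to be tested over all genes, and the values of 3 are given without a test. These 3 had higher means in old mice, which did not hold for all such genes. Fstl3 averaged 0.0601 CPM in young and 0.0318 CPM in old mice, and Angptl1 0.0335 and 0.02235 CPM, at up to 4 and 2 counts in a library. Gpnmb, a glycoprotein of lipid-laden macrophages that has also been described as a hepatokine, averaged 0.0660 ± 0.0351 CPM (SD, n = 10 young mice) and 0.671 ± 0.382 CPM (SD, n = 9 old mice), with at most 30.5 counts in a library. Phgdh, the first enzyme of serine synthesis and an ATF4 target, averaged 0.0818 ± 0.0755 CPM (SD, n = 10) and 0.532 ± 0.413 CPM (SD, n = 9). Nupr1, a stress-induced nuclear protein, averaged 0.276 ± 0.145 CPM (SD, n = 10) and 0.874 ± 0.719 CPM (SD, n = 9). The young means of Gpnmb and Phgdh lie under the 0.173 CPM that 3 counts make in the smallest library.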
